A study of Mus musculus with 6 samples.

Results

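The transcripts of 7 fibroblast growth factor (FGF) ligands, Fgf3, Fgf4, Fgf5, Fgf8, Fgf10, Fgf15 and Fgf17, and of 3 FGF receptors, Fgfr1, Fgfr2 and Fgfr3, were compared between wildtype and EVX1-Δfs embryoid bodies (EBs), the floating aggregates in which mouse embryonic stem cells (mESCs) differentiate. These 10 genes were picked by symbol from the 23353 genes listed in the expression table. The wildtype group was the parental W9.5 mESC line, and the EVX1-Δfs group was clone 14, a line edited from W9.5 with CRISPR-Cas9 to carry small frameshift deletions in both alleles of Evx1, a homeodomain transcription factor gene of the primitive streak. Each group held 3 libraries from separate differentiations, and in both groups the cells had been kept in LIF and were then grown for 4 days in serum medium without LIF. All EVX1-Δfs libraries came from 1 clone, so effects of the edit and other differences between this clone and its parent cannot be told apart.

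FGF ligands are secreted proteins that bind receptor tyrosine kinases on the cell surface together with heparan sulphate chains. The receptors relay the signal inward, mainly through the RAS and ERK kinase cascade, and ERK activity in turn raises genes that dampen the pathway, such as the Dusp and Spry genes. In the gastrulating mouse embryo FGF signalling is needed for cells to leave the primitive streak and for the formation of mesoderm, and different ligands are made by the epiblast, the streak and its descendants.

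The edit that defines the EVX1-Δfs group was aimed at exon 2 of Evx1, and the guide listed for it is shown because it marks where the group differs by design from wildtype. Read 5′ to 3′, the guide matched 1 place on chromosome 6, chr6:52265847-52265866 on the plus strand (NCBIM37, the assembly of mm9), followed there by the bases CGG. This place lies inside exon 2, which runs from 52265732 to 52265988.
Evx1 guide: ccagatgcgccgataccgca
Evx1 had 2358, 2176 and 2400 normalized counts in wildtype replicates 1, 2 and 3. The EVX1-Δfs replicates, in the same order, had 2354, 2516 and 2012. Its log2 fold change of -0.02 (limma adjusted p = 0.950) is no check of the genotype, since a frameshift need not change the number of transcripts.

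Reads assigned to genes numbered 7597879 to 9914471 per library, and 15998 to 16479 genes had at least 1 read. A normalized count is the number of reads of a gene divided by 1 size factor per library, so it compares 1 gene between libraries and not 1 gene with another. The test covered the 13136 genes that reached 10 normalized counts in 3 or more libraries, and all 10 FGF genes were among them. Calls were made at a limma adjusted p under 0.05, with the Benjamini-Hochberg adjustment over the 13136 genes. Each fold change is given as EVX1-Δfs relative to wildtype, on the log2(normalized count + 1) scale. The primitive streak marker T was present in every library at 2759 to 5299 normalized counts and the epiblast marker Pou5f1 at 5725 to 9960. EBs are mixed tissue, so in every comparison here fewer cells of a type and less RNA per cell cannot be told apart.

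Among the ligands, 2 fell and 2 rose in EVX1-Δfs EBs, and none of the 3 receptors passed the test. Fgf3, a ligand of the posterior streak and its mesoderm, fell to 34.0% of its wildtype mean, and Fgf10, a ligand of mesenchyme, fell to 59.5%. Fgf4 and Fgf5, ligands of the pluripotent epiblast, rose to 153% and 150% of their wildtype means. Over all tested genes, 2.95% were called lower and 2.08% were called higher (387 and 273 genes, and 325 and 370 with upper-quartile scaling, under which the FGF genes had the same 4 calls). The 2 genes called lower and 2 called higher among 10 stand beside these shares as a description, since the genes were chosen with earlier results of these data known. The median log2 fold change of the 10 genes was -0.05, against 0.00 over all tested genes. The groups did not overlap, with every EVX1-Δfs library below every wildtype library, for Fgf3, Fgf10 and Fgf15, 3 genes of 10, where 14.7% of all tested genes showed this. They did not overlap in the other direction for Fgf4, Fgf5 and Fgfr3, again 3 of 10, where 12.2% of all tested genes showed this. When the replicate number, which marks the day of differentiation, was added as a block, 1.11% of the tested genes were called lower and 0.579% higher. Of the FGF genes, Fgf3 and Fgf10 were then called lower and none was called higher.

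**Figure D1:**
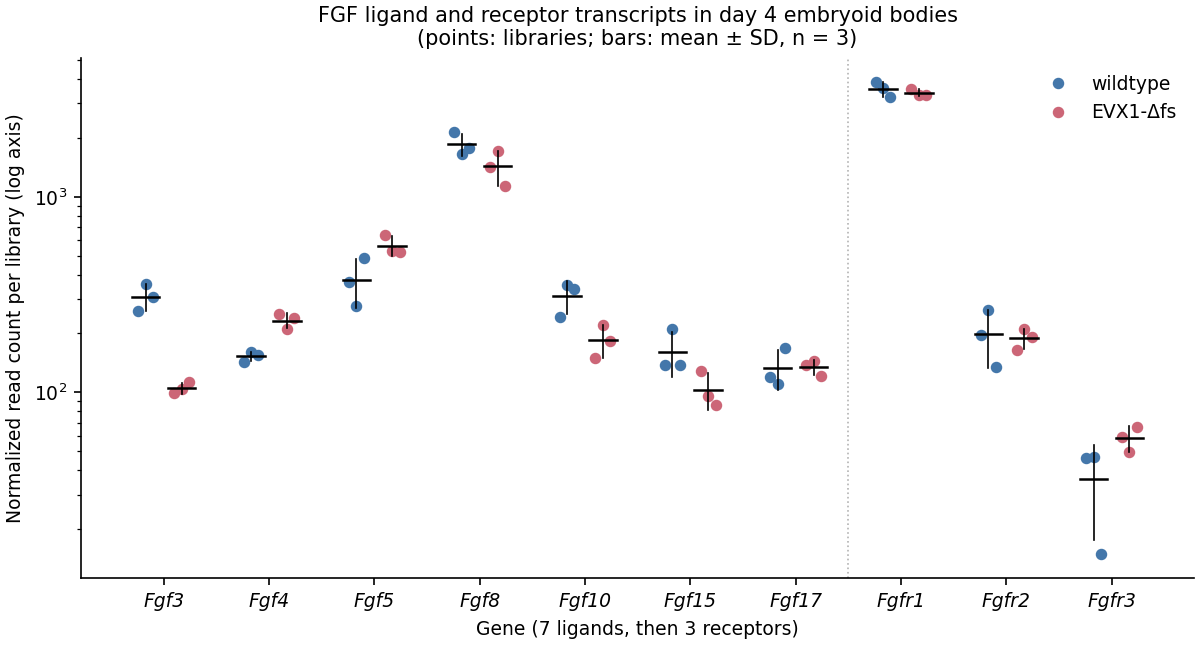
Normalized read count on a log axis for the 7 FGF ligands and 3 FGF receptors, with 1 point per library (3 wildtype, 3 EVX1-Δfs) and bars for the mean ± SD of each group. For Fgf3 the 3 EVX1-Δfs points lie between 99.0 and 112, all under the lowest wildtype point at 262, while for Fgfr1 both groups lie between 3236 and 3870.

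Fgf3 is a plus-strand gene at chr7:152023988-152030341 (NCBIM37, as for all positions that follow). It had 262, 358 and 306 normalized counts in wildtype replicates 1, 2 and 3. In EVX1-Δfs replicates 1, 2 and 3 it had 99.0, 104 and 112. The highest EVX1-Δfs library was thus far below the lowest wildtype library. The means were 309 ± 48.2 and 105 ± 6.83 (SD, n = 3). On the log2 scale this was a change of -1.54 ± 0.16 (SE), with a 95% interval from -1.86 to -1.21. The limma adjusted p was 6.06e-06, which ranked 3 among the 13136 tested genes. With the replicate block it was 0.000986, and without any 1 library in turn the log2 fold change stayed between -1.65 and -1.42. Fgf3 was called lower in all 17 alternative fits.

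Fgf10 (chr13:119458598-119580922, plus strand) encodes a ligand best known from limb and lung buds, where mesenchyme makes it for the overlying epithelium. Wildtype replicates 1, 2 and 3 had 242, 352 and 337 normalized counts. EVX1-Δfs replicates 1, 2 and 3 had 150, 221 and 183. The highest EVX1-Δfs library stood just under the lowest wildtype library, and each EVX1-Δfs library was below the wildtype library of the same number. The means of 310 ± 59.6 and 185 ± 35.4 (SD, n = 3) differed by -0.74 ± 0.17 (SE) on the log2 scale, with a 95% interval from -1.09 to -0.40 (limma adjusted p = 0.0149). With the replicate block the adjusted p was 0.0200. The call was lost without EVX1-Δfs replicate 1, where the log2 fold change was -0.60 and the adjusted p 0.0796. In the annotation, 123 exon bases of Fgf10 are shared with the antisense gene Gm16263, and reads in those bases are uncertain.

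Fgf4, which in the embryo is made by the inner cell mass, the epiblast and the early streak, is a plus-strand gene at chr7:152047291-152051148. It had 144, 160 and 155 normalized counts in wildtype replicates 1, 2 and 3, a narrow spread. The EVX1-Δfs replicates had 250, 210 and 239. All 3 EVX1-Δfs libraries were above all 3 wildtype libraries. The means were 153 ± 8.48 and 233 ± 20.9 (SD, n = 3). The difference was 0.60 ± 0.15 (SE) on the log2 scale, with a 95% interval from 0.30 to 0.91 (limma adjusted p = 0.0221). With the replicate block the same fold change had an adjusted p of 0.0579 in limma and was not called. DESeq2 with the block did not call Fgf4 either (adjusted p = 0.0843). The call was also lost without wildtype replicate 1 (adjusted p = 0.0693), without EVX1-Δfs replicate 1 (0.0980) and without EVX1-Δfs replicate 3 (0.0933), while the log2 fold change stayed between 0.55 and 0.68 whichever library was left out.

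Fgf5, a marker of the post-implantation epiblast, is a plus-strand gene at chr5:98683203-98706049. Wildtype replicates 1, 2 and 3 had 365, 276 and 484 normalized counts. EVX1-Δfs replicates 1, 2 and 3 had 638, 526 and 522. The wildtype libraries were spread more widely, and wildtype replicate 3 came close to the 2 lower EVX1-Δfs libraries. The means of 375 ± 104 and 562 ± 65.7 (SD, n = 3) differed by 0.61 ± 0.16 (SE) on the log2 scale, with a 95% interval from 0.28 to 0.94 (limma adjusted p = 0.0293). With the replicate block the adjusted p was 0.0624 in limma and 0.0412 in DESeq2. The limma call was lost when wildtype replicate 1 (adjusted p = 0.0546) or 2 (0.114) or EVX1-Δfs replicate 1 (0.131) or 2 (0.0582) was left out, and leaving out 1 library moved the log2 fold change between 0.41 and 0.81.

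**Figure D2:**
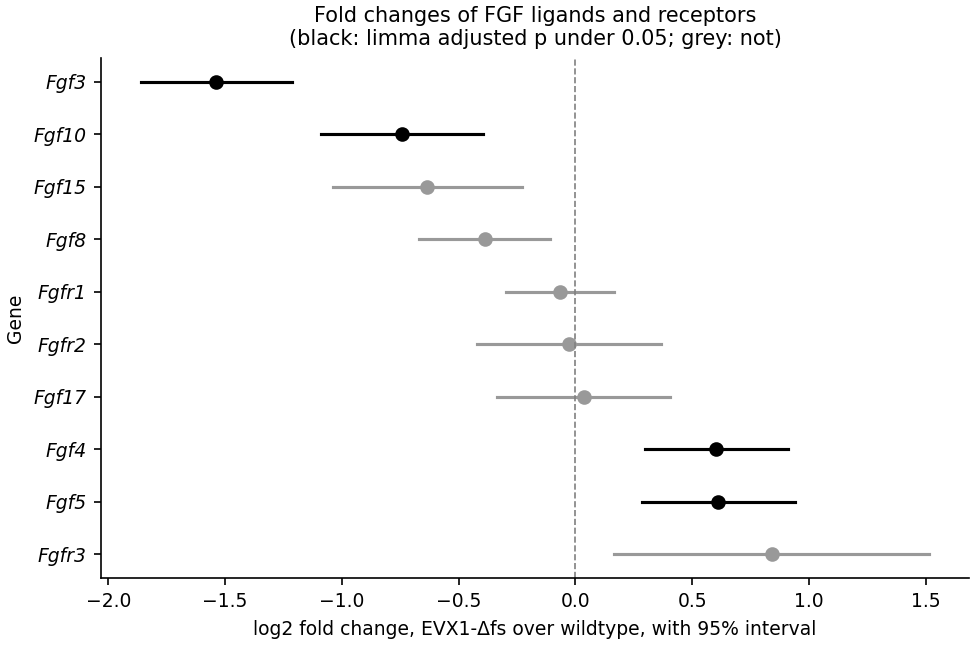
log2 fold change (EVX1-Δfs over wildtype) on the horizontal axis for the 10 FGF genes, with points for the estimate, lines for the 95% interval and black for a limma adjusted p under 0.05. Fgf3 at -1.54 lies apart from the other genes, and the widest interval, from 0.17 to 1.52, belongs to Fgfr3.

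The promoters of the 4 called ligands are shown so that the pair that fell and the pair that rose can be set side by side. RefSeq windows (GRCm38.p6), each from 250 bases before a start in RefSeq to 50 bases after it, were given for 6 of the 10 genes. The windows of Fgf8, Fgf15, Fgf17 and Fgfr1 were not used here. The RefSeq starts of Fgf4 and Fgf5 are those of the gene models given above, whereas those of Fgf3 (152024517) and Fgf10 (119503506) lie inside the gene models. Each window matched NCBIM37 at 1 place without a mismatch, and the part printed is the 250 bases before the start and the first transcribed base, 5′ to 3′ on the plus strand. Capitals mark GC boxes (GGGCGG, read as CCGCCC on the other strand) and, at the end, the first transcribed base. The first pair fell in EVX1-Δfs EBs, at chr7:152024267-152024517 and chr13:119503256-119503506.
Fgf3: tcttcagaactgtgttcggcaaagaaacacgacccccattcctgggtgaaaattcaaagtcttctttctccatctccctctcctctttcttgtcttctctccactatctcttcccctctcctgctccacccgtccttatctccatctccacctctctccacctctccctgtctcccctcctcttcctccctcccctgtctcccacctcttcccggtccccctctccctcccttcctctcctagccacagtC
Fgf10: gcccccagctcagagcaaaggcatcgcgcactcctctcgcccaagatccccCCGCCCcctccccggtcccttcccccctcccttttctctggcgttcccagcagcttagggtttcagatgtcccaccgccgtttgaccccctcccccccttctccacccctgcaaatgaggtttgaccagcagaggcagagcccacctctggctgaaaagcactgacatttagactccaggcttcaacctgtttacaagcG
The second pair rose, at chr7:152047041-152047291 and chr5:98682953-98683203.
Fgf4: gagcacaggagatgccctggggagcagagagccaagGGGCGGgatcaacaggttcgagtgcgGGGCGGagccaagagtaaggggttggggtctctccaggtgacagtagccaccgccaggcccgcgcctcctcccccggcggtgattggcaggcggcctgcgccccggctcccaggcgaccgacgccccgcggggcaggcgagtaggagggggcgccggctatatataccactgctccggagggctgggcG
Fgf5: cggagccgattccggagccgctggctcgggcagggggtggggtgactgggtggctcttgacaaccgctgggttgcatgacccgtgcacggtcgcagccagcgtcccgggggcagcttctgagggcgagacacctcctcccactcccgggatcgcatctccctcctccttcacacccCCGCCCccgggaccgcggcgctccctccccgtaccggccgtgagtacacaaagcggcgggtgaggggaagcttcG
The windows of the pair that rose held more CpG dinucleotides, 28 for Fgf4 and 29 for Fgf5, than those of the pair that fell, 14 for Fgf3 and 10 for Fgf10, where the median of all 32851 windows was 7. The 2 windows of Fgfr3, which was not called, held 26 and 30, and that of Fgfr2 held 4. The GC content was 69.7% for Fgf4, 68.3% for Fgf5, 59.3% for Fgf3 and 60.7% for Fgf10, and 69.7% and 73.0% for the Fgfr3 windows. The first 5 motifs searched, on both strands, were TAATTA (a homeodomain core), TCACACCT (a T-box element), CTTTGAT (a TCF/LEF core), ATTTGCAT (the octamer) and CCGGAAGT (an ETS site), which stood in 5.29%, 1.28%, 3.73%, 1.74% and 3.89% of all windows. None of them stood in a window of the 6 genes. The other 2, TATAAA as 1 form of the TATA box (13.6% of all windows) and the GC box (35.7%), were added after that. TATAAA stood in the Fgf5 window only, beginning 34 bases after the start. Other forms of the TATA box were not searched, and the printed Fgf4 sequence holds the letters tatatata before its start. The search thus does not say which of these genes have a TATA box. GC boxes began 214 and 188 bases before the start of Fgf4, 74 bases before that of Fgf5 and 199 bases before that of Fgf10, and none stood in the Fgf3 window. Of the other genes, Fgfr3 had 6 of them over its 2 windows and Fgfr2 none. A match is a description of the letters, and no match says only that they are not in these windows.

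Of the ligands that did not pass the test, Fgf15 and Fgf8 had lower means in EVX1-Δfs EBs and Fgf17 had nearly equal means. Fgf15 (chr7:152082437-152086858, plus strand) encodes a ligand of the subfamily that acts at a distance. It had 138, 210 and 137 normalized counts in wildtype and 128, 95.9 and 85.8 in EVX1-Δfs replicates 1, 2 and 3. The groups did not overlap, but EVX1-Δfs replicate 1 came within 10 normalized counts of 2 wildtype libraries. The log2 fold change was -0.63 with a 95% interval from -1.04 to -0.23 and a limma adjusted p of 0.0583. Over the 17 alternative fits the adjusted p ran from 0.0532 to 0.221, and the log2 fold change was below 0 in each. Of its exon bases, 478 are shared with the antisense gene Gm17685, and reads in those bases are uncertain.

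Fgf8, the ligand most needed for cells to move out of the primitive streak, is a minus-strand gene at chr19:45811288-45817405. Its values in replicates 1, 2 and 3 were 2132, 1663 and 1773 normalized counts in wildtype and 1428, 1723 and 1138 in EVX1-Δfs EBs. EVX1-Δfs replicate 2 was above wildtype replicate 2, so the groups overlapped. The log2 fold change was -0.39 with a 95% interval from -0.67 to -0.11 (limma adjusted p = 0.0891). Leaving out EVX1-Δfs replicate 2 moved it to -0.53, with an adjusted p of 0.0419, while leaving out EVX1-Δfs replicate 3 moved it to -0.23 (0.407). Fgf8 had the highest GC content of the 10 genes, 63.1% of its exon bases, and once the trends of each library on GC content and length were removed its log2 fold change was -0.18 (adjusted p = 0.423). Fgf17, a close relative of Fgf8 at chr14:71036012-71042075 (minus strand), had 121, 111 and 168 normalized counts in wildtype and 137, 145 and 121 in EVX1-Δfs EBs. The EVX1-Δfs values lay inside the wildtype range. Its log2 fold change was 0.04, with a 95% interval from -0.34 to 0.41 and a limma adjusted p of 0.930.

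The 3 receptors did not pass the test, and they differed widely in how closely a change could be bounded. Fgfr1, the main receptor of the epiblast and the nascent mesoderm, is a plus-strand gene at chr8:26624126-26686186. It had 3870, 3582 and 3236 normalized counts in wildtype and 3567, 3316 and 3319 in EVX1-Δfs replicates 1, 2 and 3, and the EVX1-Δfs values lay inside the wildtype range. The log2 fold change was -0.06 with a 95% interval from -0.29 to 0.17 (limma adjusted p = 0.774), the narrowest interval of the 10 genes. Fgfr2, on chromosome 7, had 196, 265 and 135 normalized counts in wildtype and 164, 210 and 192 in EVX1-Δfs EBs. Its log2 fold change was -0.03 with a 95% interval from -0.42 to 0.37 (limma adjusted p = 0.950). The annotated model of Fgfr2 reaches from 137305965 to 140315033 as far as Ctbp2, with which it shares 314 exon bases on the same strand, so its count and its length are uncertain. Fgfr1 shares 761 exon bases with a second model on the same strand that is also named Fgfr1 and 125 with the antisense gene Gm16159, so its count and RPKM are uncertain to that extent.

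Fgfr3 (chr5:34064373-34079716, plus strand) had the fewest reads. Wildtype replicates 1, 2 and 3 had 45.9, 46.9 and 14.9 normalized counts, which came from 48, 53 and 13 reads. EVX1-Δfs replicates 1, 2 and 3 had 58.8, 49.6 and 66.7. The groups did not overlap, but EVX1-Δfs replicate 2 stood just above 2 wildtype libraries, and wildtype replicate 3 alone was far lower. The log2 fold change of 0.84 had a 95% interval from 0.17 to 1.52 and a limma adjusted p of 0.125, and it was 0.31 (adjusted p = 0.506) without wildtype replicate 3. At this depth the interval is too wide to place the difference closely.

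To compare 1 gene with another, reads were divided by the annotated exon length and by all reads assigned to genes in the library (RPKM). On this scale Fgf8 was the leading ligand and Fgfr1 the leading receptor in every library. The order of Fgf3 and Fgf4 relative to each other was reversed between the groups. In wildtype EBs the level of Fgf8 was 151 ± 21.3 RPKM and that of Fgfr1 48.5 ± 6.02 RPKM (SD, n = 3). Fgf5 at 16.3 ± 3.78, Fgf3 at 14.6 ± 2.65, Fgf15 at 9.85 ± 2.92, Fgf17 at 8.59 ± 1.56, Fgf10 at 7.39 ± 1.46 and Fgf4 at 5.53 ± 0.432 RPKM followed, and each of these overlapped its neighbour in the order over the 3 libraries. Fgfr2 at 2.82 ± 1.03 and Fgfr3 at 0.581 ± 0.309 RPKM came last, each below the gene before it without overlap.

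In EVX1-Δfs EBs Fgf8 was at 124 ± 24.1, Fgfr1 at 49.3 ± 1.26 and Fgf5 at 26.2 ± 2.51 RPKM, with no overlap between them. Fgf17 at 9.32 ± 0.731 and Fgf4 at 8.99 ± 0.791 RPKM overlapped each other. Fgf15 at 6.65 ± 1.26, Fgf3 at 5.29 ± 0.475 and Fgf10 at 4.70 ± 0.940 RPKM each overlapped their neighbour, and Fgfr2 at 2.84 ± 0.382 and Fgfr3 at 0.994 ± 0.161 RPKM again came last. Fgf3 was above Fgf4 in all 3 wildtype libraries, where it ran from 12.5 to 17.6 RPKM against 5.25 to 6.03 for Fgf4. In all 3 EVX1-Δfs libraries Fgf4 was above Fgf3, at 8.08 to 9.47 against 4.86 to 5.80 RPKM. The order of the 10 genes by mean in each group was the same with the length of the longest coding transcript in place of the exon length. With that length, however, Fgfr2 overlapped the gene before it in both groups. In wildtype libraries Fgfr2 then ran from 3.17 to 6.81 RPKM against 5.25 to 6.03 for Fgf4. In EVX1-Δfs libraries it ran from 4.24 to 5.53 against 4.17 to 6.27 RPKM for Fgf10. The wildtype means of Fgfr1 and Fgfr2 were then 78.4 and 4.96 RPKM.

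As a share of the summed RPKM of the 7 ligands, Fgf8 made up 67.7% to 75.7% in wildtype libraries and 63.0% to 71.4% in EVX1-Δfs libraries, and the groups overlapped. Fgf5 held 6.11% to 9.99% of the sum in wildtype libraries and 11.8% to 15.7% in EVX1-Δfs libraries. Fgf3 held 5.40% to 8.53% and 2.50% to 3.61%, respectively. The make-up thus held more Fgf5 and less Fgf3 in every EVX1-Δfs library than in any wildtype library. These shares rest on the same reads as the tests above and were not tested. The sum itself was 213 ± 16.0 RPKM in wildtype and 185 ± 24.1 RPKM in EVX1-Δfs EBs (SD, n = 3), and EVX1-Δfs replicate 2 at 209 was above 2 wildtype libraries. Of the summed RPKM of the 3 receptors, Fgfr1 made up 93.6% ± 1.89 (SD, n = 3) in wildtype EBs and 92.8% ± 0.813 (SD, n = 3) in EVX1-Δfs EBs.

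**Figure D3:**
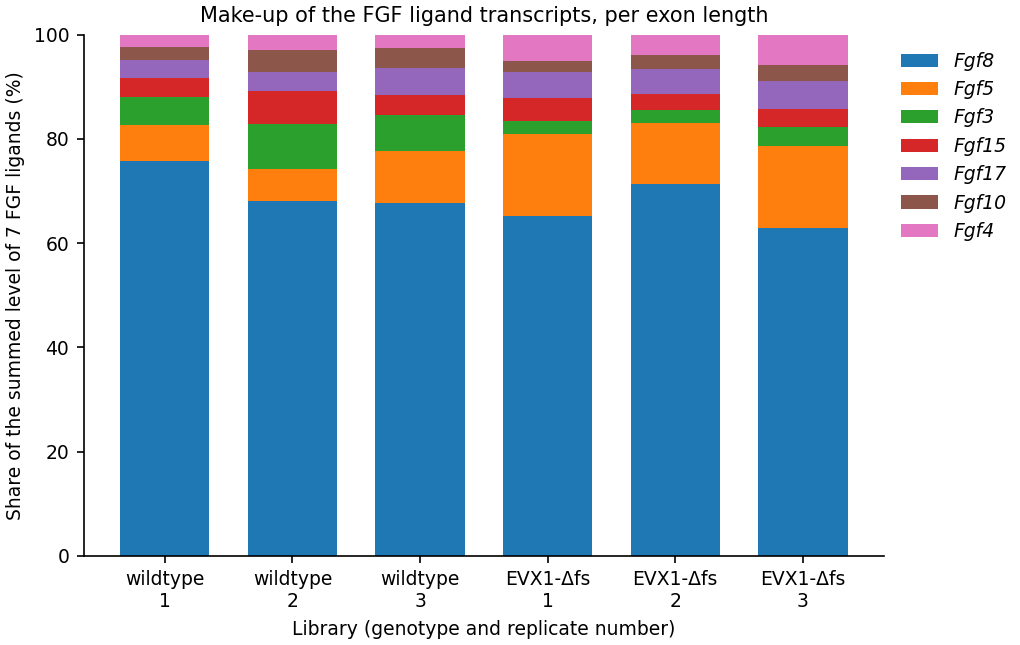
Stacked bars, from 0 to 100%, give the share of each ligand in the summed RPKM of 7 FGF ligands, with 1 bar per library. The Fgf8 segment is the largest in each bar, and the Fgf5 segment is 6.11% to 9.99% in wildtype and 11.8% to 15.7% in EVX1-Δfs libraries.

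Fgf3, Fgf4 and Fgf15 lie within 62.9 kb of each other on the plus strand of chromosome 7, and they did not move together. The gene model of Fgf4 begins 23.3 kb after that of Fgf3 and had a log2 fold change of 0.60, while Fgf3 had -1.54 and Fgf15, which begins 58.4 kb after Fgf3, had -0.63. The intervals of Fgf3 and Fgf4 given above lie on opposite sides of 0. Within 300 kb of either end of this stretch 13 genes were annotated, these 3 included, of which 8 were listed in the table. Ccnd1, the gene of the cell cycle protein cyclin D1, averaged 2882 ± 248 normalized counts in wildtype EBs (SD, n = 3) and 2015 ± 99.9 in EVX1-Δfs EBs. It fell by 0.51 on the log2 scale (limma adjusted p = 0.0107). This p was 0.0388 with the replicate block and 0.0546 without EVX1-Δfs replicate 1. The other 4 neighbours did not pass the test. Ppfia1 had a log2 fold change of -0.09 (adjusted p = 0.686), Fadd -0.50 (0.0982), Ano1 -0.88 (0.136) and Oraov1 0.04 (0.919). Ccnd1, Fadd and Ano1 did not overlap between the groups, with every EVX1-Δfs library lower, where 14.7% of all tested genes showed this. Ppfia1 and Oraov1 overlapped.

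**Figure D4:**
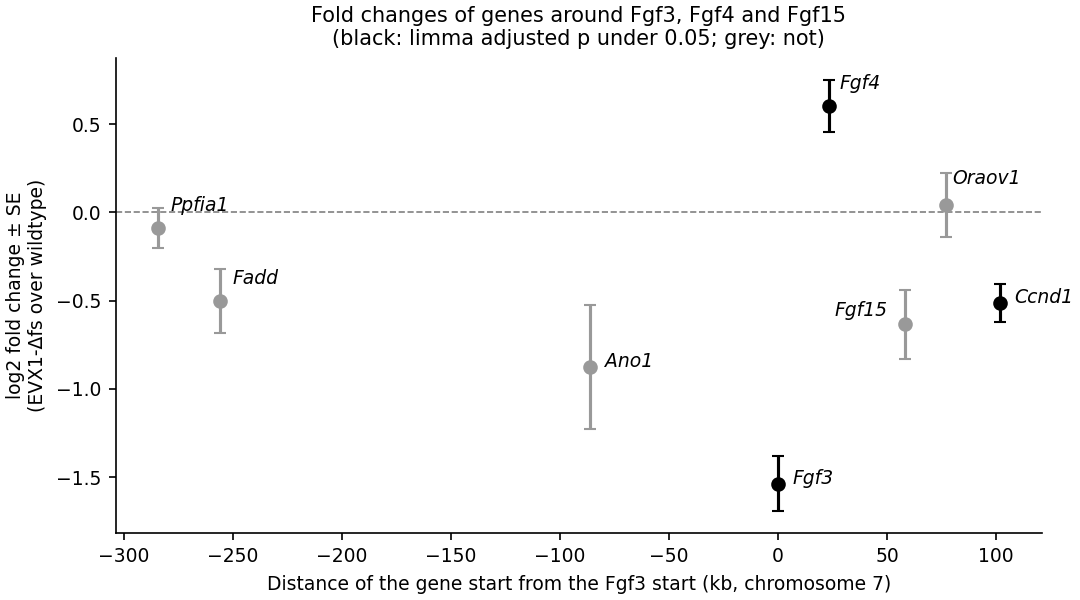
log2 fold change ± SE (EVX1-Δfs over wildtype, n = 3 per group) of the 8 genes listed around the Fgf3, Fgf4 and Fgf15 stretch, against the distance of each gene's start from that of Fgf3 in kb. Fgf3 at -1.54 and Fgf4 at 0.60 stand 23.3 kb apart on opposite sides of the line at 0.

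Removal of the per-library trends on GC content and length, leaving out 1 library at a time, or a change of scaling, pseudocount or test left the direction of Fgf3, Fgf10, Fgf15, Fgf8, Fgf4 and Fgf5 as it was in all 17 alternative fits. With the GC and length trends removed, the log2 fold change of Fgf3 was -1.39, that of Fgf10 -0.97, that of Fgf4 0.65 and that of Fgf5 0.56. Fgf5 then had a limma adjusted p of 0.0571 and was not called, while Fgf4 was called at 0.0174, and at 0.0432 with the replicate block added. Fgf4 and Fgf5 were thus called in 12 and 10 of the 17 alternative fits, against 16 for Fgf10.

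**Figure D5:**
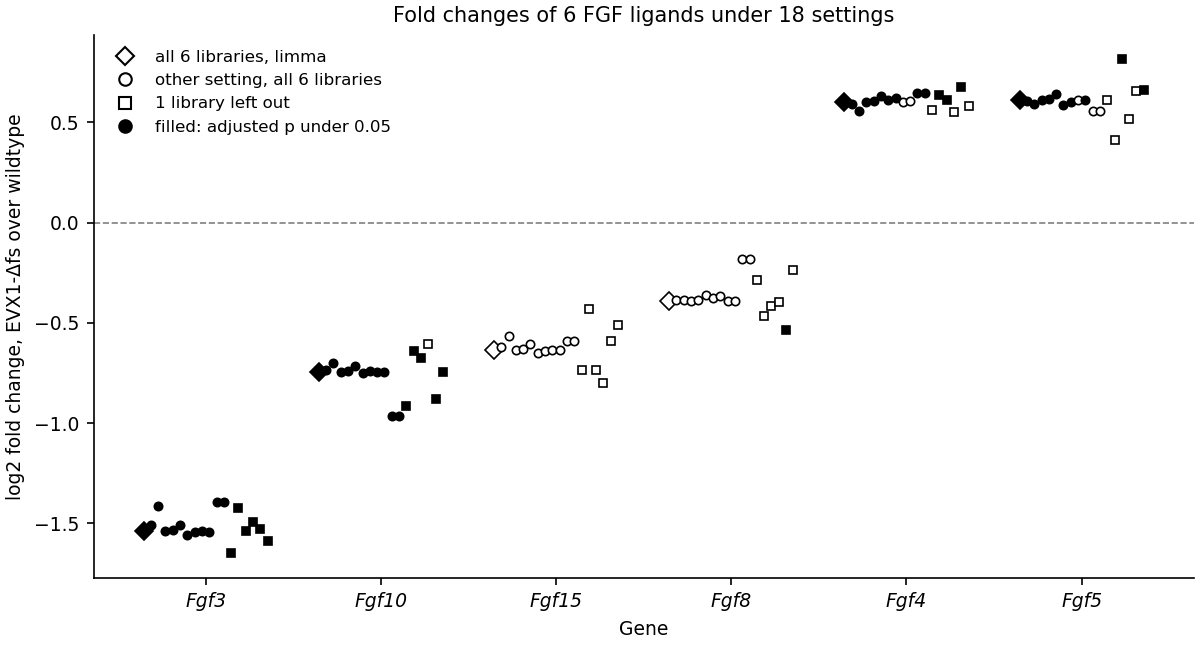
log2 fold change (EVX1-Δfs over wildtype) of 6 FGF ligands under 18 settings, with a diamond for limma on all 6 libraries, circles for other settings and squares where 1 library was left out. Filled symbols had an adjusted p under 0.05, as all 18 of Fgf3 did and none of Fgf15 did.

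The other genes of the pathway were taken from lists of 75 genes, of which 58 were tested, and most of them did not pass the test. Of these 58, 3 were called lower and 4 higher, beside 2.95% and 2.08% of all tested genes. With the replicate block 1 was called lower and 1 higher, beside 1.11% and 0.579% of all tested genes. Their median log2 fold change was -0.02, against 0.00 over all tested genes. The same shares of all tested genes called lower and higher stand beside the counts given for each list below.

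Of 19 further genes of the FGF family, its receptors and co-receptors, not all of them secreted ligands, 15 were under the filter. These had no library above 11.4 normalized counts, and among them were the receptor Fgfr4 and the ligands Fgf1 and Fgf2. The other 4, Fgf9, Fgf11, Fgf13 and Fgfrl1, did not pass the test, with log2 fold changes between -0.16 and 0.15. Fgfrl1, a receptor that lacks a kinase domain, had mean normalized counts of 503 in wildtype and 451 in EVX1-Δfs EBs, Fgf13 had 177 and 160, and Fgf9 had 105 and 106. Of 5 FGF binding and FLRT proteins, 3 were tested and none passed, among them Flrt3 (log2 fold change 0.26, limma adjusted p = 0.372).

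Heparan sulphate chains hold FGF ligands at the receptor, and of 19 genes for their synthesis, editing and core proteins, all were tested, with 1 called lower and 2 higher. Gpc4, a glypican core protein, had 101, 61.9 and 66.4 normalized counts in wildtype and 157, 129 and 161 in EVX1-Δfs replicates 1, 2 and 3. It rose by 0.98 on the log2 scale (limma adjusted p = 0.00742), and at 0.0240 it was the only gene of this list still called with the replicate block. Glce, an epimerase of heparan sulphate synthesis, rose by 0.49 (adjusted p = 0.0338, 0.0734 with the block), and Sdc1, a syndecan core protein, fell by 0.42 on the log2 scale (adjusted p = 0.0383, 0.0680 with the block). Glce was also not called without wildtype replicate 1 (0.106) or 3 (0.0629), or without EVX1-Δfs replicate 1 (0.141) or 3 (0.101). Sdc1 kept its call when EVX1-Δfs replicate 2 was left out (0.0447) and had an adjusted p of 0.0536 to 0.141 without any other library. Removing the GC and length trends also ended the calls of Glce (0.170) and Sdc1 (0.151), as did the block in DESeq2 (0.105 and 0.0772). Gpc3, the glypican with the highest normalized count of the list, which is not scaled by length, did not pass, at -0.18 on the log2 scale (adjusted p = 0.408).

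Of 19 genes that relay the signal from receptor to ERK, all were tested, with 1 called lower, 2 higher and 16 not called. Map2k2, a kinase that activates ERK, fell by 0.50 on the log2 scale (limma adjusted p = 0.0178), and Nras, a small GTPase upstream of the kinases, rose by 0.44 (adjusted p = 0.0261). With the replicate block their adjusted p-values were 0.0587 and 0.0597, and none of the 19 was called. Leaving out wildtype replicate 3 (0.0570) or EVX1-Δfs replicate 1 (0.0679) or 3 (0.0892) also ended the call of Map2k2. Leaving out wildtype replicate 1 (0.0652) or EVX1-Δfs replicate 1 (0.126) or 3 (0.0794) ended that of Nras. With the GC and length trends removed neither Map2k2 (0.0955) nor Nras (0.195) was called. Ptpn11, the phosphatase SHP2, had a log2 fold change of -0.23 (adjusted p = 0.211).

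Among 13 genes that respond to ERK, only Dusp4, which encodes a phosphatase that switches ERK off in the nucleus, passed the test. It had 3166, 3004 and 2951 normalized counts in wildtype replicates 1, 2 and 3. The EVX1-Δfs replicates, in the same order, had 1498, 1695 and 1704. No EVX1-Δfs library came near a wildtype library. Dusp4 fell by 0.90 on the log2 scale (limma adjusted p = 4.94e-05, 0.00289 with the replicate block) and was called lower in all 17 alternative fits. The other 12, among them Dusp6, Spry1, Spry2, Spry4, Etv4 and Etv5, did not pass, and their log2 fold changes lay between -0.36 and 0.19.

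Markers of several cell types also differed between the groups, and their part in the FGF values was not tested. Of 6 primitive streak markers 5 were called lower, among them T (-0.58), Mixl1 (-0.84) and Mesp1 (-1.02), and 3 with the replicate block, in which T had a limma adjusted p of 0.0566. T was also not called without EVX1-Δfs replicate 1 (0.0747). The summed level of the list was 12627 to 15354 normalized counts in wildtype and 8780 to 10760 in EVX1-Δfs libraries. Of the tested markers, 4 of 5 of paraxial mesoderm, 3 of 6 of lateral mesoderm and 3 of 7 of blood and endothelium were called lower, and 3, 2 and 3 with the block. Their summed levels were 1592 to 1873, 4738 to 7563 and 3054 to 4023 in wildtype, and 822 to 1183, 2779 to 3475 and 1798 to 2039 in EVX1-Δfs libraries. Fgf3 and Fgf10 were also lower in every EVX1-Δfs library than in any wildtype library, as were 14.7% of all tested genes. Among these mesoderm, blood and endothelium markers, Rspo3 (0.03), Tbx20 (0.24), Gata1 (0.67) and Pecam1 (0.16) had log2 fold changes above 0 and were not called. Of all tested genes, 2.95% were called lower, and 1.11% with the block. Of 6 markers of anterior and definitive endoderm 3 were called higher, among them Cer1 (3.49), and 1 with the block, while the summed levels overlapped, at 1064 to 1518 and 1082 to 1819. Beside these stand 2.08% of all tested genes called higher, and 0.579% with the block. The rest of this list had lower means and was not called: Hhex (-0.57, limma adjusted p = 0.129), Gsc (-0.29, 0.413) and Lhx1 (-0.25, 0.393). None of 6 epiblast markers passed the test, and their median log2 fold change was 0.39, beside the higher Fgf4 and Fgf5. Nanog (0.40, limma adjusted p = 0.0552, DESeq2 0.0293) and Sox2 (0.41, limma 0.0559, DESeq2 0.0346) did not overlap between the groups, with every EVX1-Δfs library higher. This was so for 12.2% of all tested genes. Dnmt3b (0.41, limma 0.0828) and Otx2 (0.39, 0.128) overlapped, as did Pou5f1 (-0.04, 0.896) and Utf1 (0.03, 0.938). The summed levels of the 6, of which Pou5f1 and Dnmt3b made up most, were 12834 to 20028 in wildtype and 16385 to 20879 in EVX1-Δfs libraries. None of 2 tested visceral endoderm, 3 tested neurectoderm and 4 tested trophoblast markers passed. Afp, Ttr, Apoa1 and Apoa4 of visceral endoderm were at 0 to 3.81 normalized counts in every library and Prl3d1 of trophoblast at 0.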

How the data were processed

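RNA-seq was measured in 6 libraries of day 4 EBs. The authors selected mRNA and sequenced it on an Ion Proton machine. They aligned reads to mm9 with TopHat2 and TMAP and assigned them to genes with HTSeq. The annotation and the tool versions are not given in the sources used here. The deposited values are a signal that is never negative, made of the authors' read counts divided by 1 DESeq2-type size factor per library. Whole reads were recovered from the steps of the values, and 100% came out whole within 0.001 of a read. These recovered counts numbered 7597879 to 9914471 per library, and Rn45s took 1.87% to 4.95% of them. Low counts limit the precision of low genes, and p-values measure the spread between 3 differentiations of 1 line per group.

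The study tested its counts with DESeq2, which is an alternative here because the deposited values are already normalized. The main test was limma (3.58.1, with a mean-variance trend, in R 4.3.3) on log2(value + 1) over the 13136 genes that reached a value of 10 in 3 or more libraries, with the Benjamini-Hochberg adjustment over all of them. This scale understates the change of low genes. The 17 alternatives were pseudocounts of 4 and 16, all genes with any read, TMM and upper-quartile scaling, DESeq2 (1.42.0) and edgeR's quasi-likelihood test (4.0.16) on the recovered reads, limma and DESeq2 with the replicate number as a block, removal of each library's trend on GC content and exon length (natural splines of 5 degrees of freedom, 12972 genes, with and without the block), and leaving out each library. The fits were also run on simulated counts, with larger changes than those of Fgf4 and Fgf5 and without an effect of the day. That run thus says nothing about calls of changes of that size, or about the need for the block.

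The series' design text says that both lines were differentiated together, each replicate on its own day, so the replicate number pairs the libraries. As a check, deviations from group means were correlated within each pair over the tested genes, at 0.111, 0.00933 and -0.101 for replicates 1, 2 and 3. These correlations were weak and differed in sign, so the check itself showed no common effect of the day.

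Genes were placed on NCBIM37 with GENCODE vM1, in which 21975 of 23353 symbols (94.1%) were found, 768 of these by an older name. Promoter windows are RefSeq's (GRCm38.p6), placed on NCBIM37 by exact match, and the guide is the study's. The FGF genes and the lists of other pathway genes and markers were chosen with earlier results of these data known. Named were the 10 FGF genes, from each list at most 3 called genes in each direction and the gene with the highest mean normalized count, genes within 300 kb of the Fgf3, Fgf4 and Fgf15 stretch, and T, Pou5f1 and at most 3 called genes of each marker list. Other genes were named after their values were seen. The values of 1 called gene of the relay list are not reported here.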

Additional observations from a re-analysis of the deposited data

How the results depend on the processing

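Of 169 values of the 10 FGF genes under the 17 alternatives (the block in DESeq2 gave none for Fgfr3), 149 had the same direction and fell on the same side of the threshold, 13 lost a call and 1 gained one. The other 6 changed sign and were not called: Fgf17 had log2 fold changes of -0.02 without wildtype replicate 1, -0.0856 without wildtype replicate 2 and -0.02 without EVX1-Δfs replicate 2 (0.215 at the highest), and Fgfr2 had 0.0018 with upper-quartile scaling, 0.206 without wildtype replicate 2 and 0.0696 without EVX1-Δfs replicate 1 (-0.276 at the lowest). The count of FGF genes called lower was 2, and 1 to 3 when 1 library was left out. The count called higher, 2, became 0 in limma and 1 in DESeq2 with the replicate block, 1 with the GC and length trends removed, 1 with those and the block, and 0 to 2 when 1 library was left out. Over all tested genes, 387 lower and 273 higher became 146 and 76 with the block in limma, 207 and 77 with the block in DESeq2, 181 and 97 with the trends removed, and 132 and 71 with both; leaving out 1 library gave 138 to 355 lower and 77 to 332 higher. Upper-quartile scaling gave 325 lower and 370 higher. Of the other pathway genes, 3 lower and 4 higher became 1 and 1 with the block in limma, with the trends removed and with both, and 1 was higher with the block in DESeq2; leaving out 1 library gave 1 to 3 lower and 1 to 4 higher. The causes were not tested. In limma the block changed no other call of a gene named above than those given there. The block in DESeq2 gave no adjusted p for Gpc4. With the trends removed and the block added, T was not called (limma adjusted p = 0.0701). Depth limits Fgfr3 most, with 13 reads in wildtype replicate 3. The authors' annotation is not known, so exon lengths, and with them the RPKM values, are those of GENCODE vM1.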

Other observations

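Fgf14, an intracellular relative of the secreted FGFs, was under the filter on low values and was picked out here after its values were seen. It had 0, 4 and 2 reads in wildtype replicates 1, 2 and 3, against 10, 7 and 7 reads in the EVX1-Δfs replicates in the same order. In the limma fit on all 18245 genes with any read, its log2 fold change was 1.85 ± 0.54 (SE) with an adjusted p of 0.0642, so it was not called. None of the 17 pathway genes under the filter was called in that fit.

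For Fgf5 and Fgf4, the pair of ligands that rose, the mean ratio of reads was alike in both groups. It was 2.47 ± 0.708 Fgf5 reads per Fgf4 read in wildtype EBs (SD, n = 3) and 2.41 ± 0.200 in EVX1-Δfs EBs. The wildtype libraries were spread widely, at 2.55, 1.72 and 3.13 in replicates 1, 2 and 3, against 2.55, 2.51 and 2.18 in EVX1-Δfs. The reads of Fgf10 per read of Fgf3, the pair that fell, were 0.923, 0.983 and 1.10 in wildtype replicates 1, 2 and 3. In the EVX1-Δfs replicates, in the same order, they were 1.52, 2.13 and 1.63, so the ratio was higher in each EVX1-Δfs library. These ratios were picked after the values were seen and were not tested.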
